A study of Mus musculus with 18 samples.

Results

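Glutathione transferases of the mu class were followed through the genes Gstm1, Gstm2, Gstm3, Gstm4, Gstm5, Gstm6 and Gstm7, 7 of the 18193 named genes on the array. Members were chosen by gene symbol, and 12 of the 45101 probe sets carry 1 of these symbols. Each gene was read from its probe set with the highest mean over the 18 arrays, and all 12 probe sets are given because members of the family resemble each other in sequence and probes of one can bind RNA of another. The livers came from male mice of the genotypes Alb-Cre+/-/POR-lox+/+ (knockout) and Alb-Cre-/-/POR-lox+/+ (control). Both genotypes thus carry floxed alleles of the P450 reductase gene, and the knockout adds a Cre recombinase under the albumin promoter, which is active in hepatocytes. No value of the reductase transcript was used here, and the genotype rests on the labels. From the age of 4 weeks the mice ate a synthetic diet whose fat was lard, canola oil or a mixture of fish and fungal oils (ARASCO and menhaden oil), for 8 weeks, and livers were taken at 12 weeks of age after a fast of 4 h. The added fat is given as 7% in the sample labels and as 6% in the text on the series. Base diets of all groups also held 0.025% cholesterol and 0.008% sodium cholate. Each array carried a pool of liver RNA from 3 mice, and the 2 genotypes on 3 diets make 6 groups with 3 arrays each. A group thus rests on 9 mice, and a p-value sets a difference against the spread between pools, not between single mice. In the fit of all 18 arrays the 6 groups share an estimate of that spread.

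Mu class enzymes are cytosolic proteins that pair into dimers and join glutathione to electrophiles, among them products of the P450 enzymes, so that these can be exported from the cell. P450 reductase passes electrons to all microsomal P450s. In liver, several Gstm genes are known targets of the receptors CAR and PXR and of the antioxidant factor NRF2, which also control P450 and glucuronosyltransferase genes. The 7 genes lie side by side on chromosome 3, in the order Gstm5, Gstm7, Gstm6, Gstm3, Gstm2, Gstm1 and Gstm4 in the RefSeq annotation of GRCm38.p6.

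Promoter windows from RefSeq (GRCm38.p6), which run from 250 bases before to 50 after a transcript's start, were found for 7 of 7 members. Shown are those of the 3 genes with the largest knockout effects and of Gstm7, which had the smallest, because these neighbours differed in their change. Gstm3 lies at chr3:107969125-107969424, Gstm2 at chr3:107986371-107986670, Gstm1 at chr3:108017769-108018068 and Gstm7 at chr3:107931565-107931864, all on the minus strand and written 5′ to 3′. For Gstm1 and Gstm7, which have 2 windows each, the one of the start furthest downstream is shown. The start of the Gstm7 window is placed differently from that of Gstm1. The run gcaccatgcc, which both windows hold, begins at position 39 in Gstm1 and at -45 in Gstm7. Positions in these windows are therefore not directly comparable. Capitals mark matches, on either strand, to TGACNNNGC (core of the antioxidant response element), AGGTCA (a nuclear receptor half-site) or TATAAA.
Gstm3: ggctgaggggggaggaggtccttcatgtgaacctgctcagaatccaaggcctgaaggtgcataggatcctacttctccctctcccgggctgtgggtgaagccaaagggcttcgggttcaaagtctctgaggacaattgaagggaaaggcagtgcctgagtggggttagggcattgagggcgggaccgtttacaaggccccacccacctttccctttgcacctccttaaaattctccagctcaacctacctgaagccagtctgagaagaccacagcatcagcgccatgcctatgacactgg
Gstm2: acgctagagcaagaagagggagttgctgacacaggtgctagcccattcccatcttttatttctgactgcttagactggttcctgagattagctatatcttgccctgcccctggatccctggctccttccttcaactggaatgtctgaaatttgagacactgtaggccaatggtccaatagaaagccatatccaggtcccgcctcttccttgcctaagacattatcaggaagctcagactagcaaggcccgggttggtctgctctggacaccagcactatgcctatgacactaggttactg
Gstm1: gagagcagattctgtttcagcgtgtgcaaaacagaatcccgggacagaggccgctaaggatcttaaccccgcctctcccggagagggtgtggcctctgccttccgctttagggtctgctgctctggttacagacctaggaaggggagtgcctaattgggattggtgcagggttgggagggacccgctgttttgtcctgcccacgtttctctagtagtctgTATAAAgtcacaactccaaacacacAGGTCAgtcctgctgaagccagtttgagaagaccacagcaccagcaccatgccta
Gstm7: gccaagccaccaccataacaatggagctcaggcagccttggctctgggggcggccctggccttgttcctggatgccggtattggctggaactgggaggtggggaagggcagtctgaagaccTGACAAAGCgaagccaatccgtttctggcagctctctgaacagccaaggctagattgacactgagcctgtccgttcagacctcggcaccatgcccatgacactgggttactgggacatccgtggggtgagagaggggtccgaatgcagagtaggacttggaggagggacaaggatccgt
The Gstm1 window held TATAAA from position -30 and AGGTCA from position -5 relative to the start, and the Gstm7 window held TGACNNNGC from position -129. None of these letters stood in the windows of Gstm3 and Gstm2. Of the members not shown, Gstm5, which rose in the knockout, held TGACNNNGC from position -42 and TATAAA from position 41. The windows of Gstm4 and Gstm6 held no match. In the other Gstm7 window only TATAAA stood, from position -231. Among all 32851 windows of 300 bases, TGACNNNGC stood in 12.4%, AGGTCA in 16.3% and TATAAA in 13.6%. The longest run of letters shared by the windows of Gstm1 and Gstm3 was tgagaagaccacagca, 16 bases just after both starts, the longest of the 21 pairs of members. A match describes letters and is not evidence of binding.

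In knockout livers 5 of the 7 mu class genes rose and 0 fell. Averaged over the 3 diets, Gstm3 was 8.23-fold higher in knockout livers, Gstm2 2.04-fold, Gstm1 1.53-fold, Gstm4 1.49-fold and Gstm5 1.22-fold. Gstm6 (1.22-fold, adjusted p = 0.308) and Gstm7 (1.02-fold, adjusted p = 0.891) did not pass. Over all 12578 genes tested, 3.82% were higher by the same rule and 0.755% lower, so that 83.5% of calls were higher. After another quantile normalization 71% were higher, and the same number of members passed. The median log2 change was 0.57 over the 7 members, and 0 over all genes tested. All 7 genes were bright enough to test, and all their groups lay above the median of the arrays (5.229 to 5.286). For 4 members, Gstm1 to Gstm4, the lowest knockout array lay above the highest control array of the same diet on each of the 3 diets, which was so for 0.930% of genes tested. The tests are limma's on log2 values with Benjamini-Hochberg adjustment over all genes tested, threshold 0.05.

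**Figure D1:**
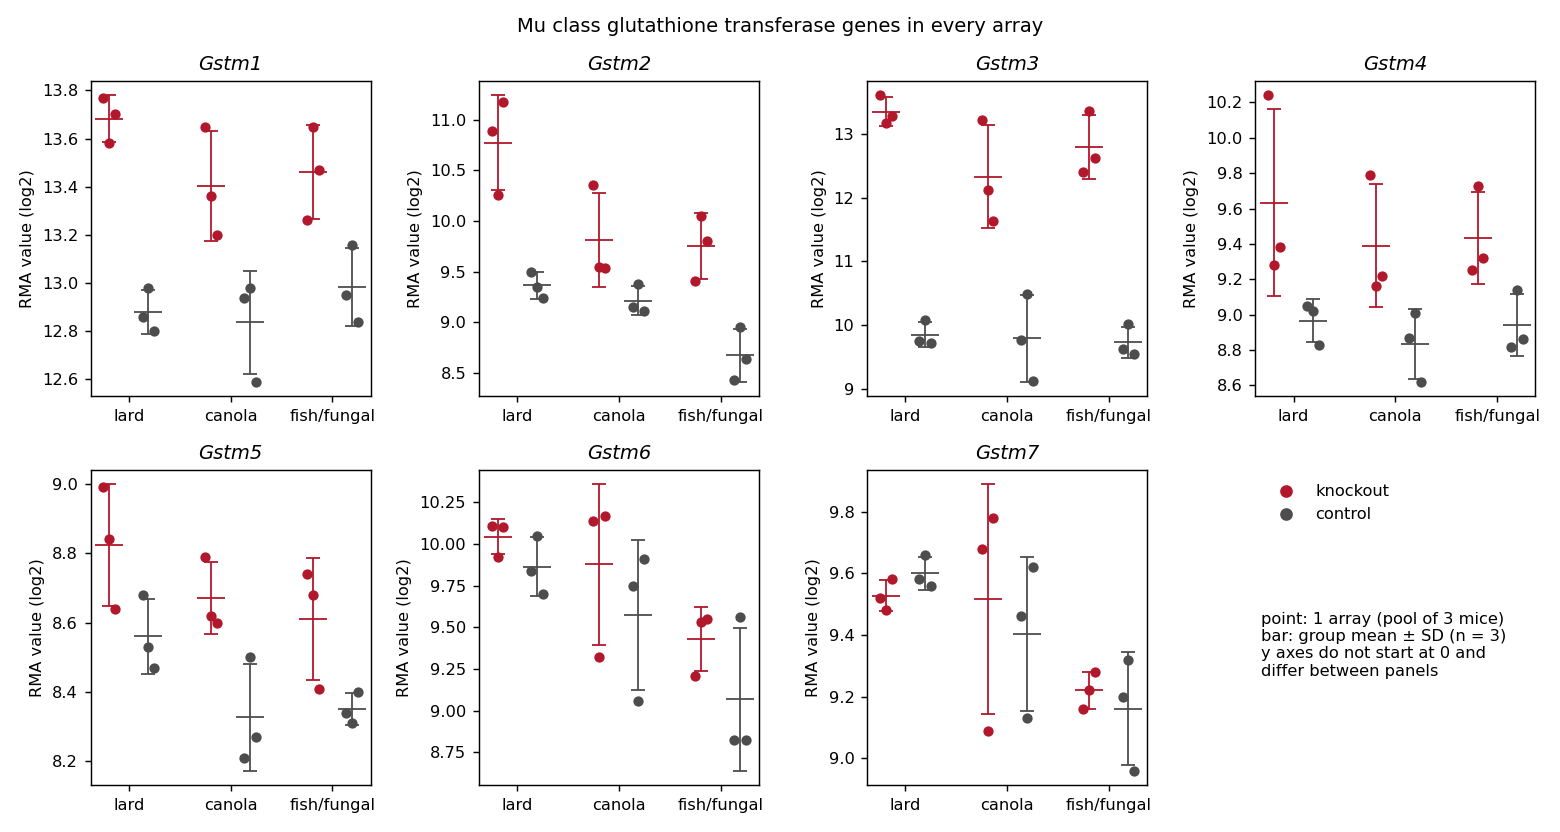
Values of the 7 genes in each of the 18 arrays (y, RMA value on the log2 scale, 1 panel per gene with its own axis), by diet (x), with knockout left of control and bars for the group mean ± SD of 3 pools. Knockout and control arrays stand apart within every diet for Gstm1 to Gstm4 and mix for Gstm6 and Gstm7.

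Gstm3 changed most. On lard its log2 values were 13.61, 13.17 and 13.28 in knockout livers, against 9.74, 10.07 and 9.72 in control livers. On canola oil they were 13.22, 12.12 and 11.64 in knockout livers and 9.76, 10.49 and 9.12 in control livers. On fish/fungal oil they were 12.41, 13.36 and 12.62 in knockout livers and 9.62, 10.01 and 9.55 in control livers. Every knockout array lay above every control array whatever the diet, and the 3 canola pools spread widest in both genotypes. The averaged log2 change was 3.04 ± 0.20 (SE; 95% interval 2.62 to 3.47; adjusted p = 9.06e-08), the third largest rise of the 12578 genes tested. Within single diets Gstm3 passed on all 3. Its change was 3.51 ± 0.35 on lard (11.4-fold, adjusted p = 5.06e-05), 2.54 ± 0.35 on canola oil (5.81-fold, adjusted p = 0.00493) and 3.07 ± 0.35 on fish/fungal oil (8.42-fold, adjusted p = 0.000239). With the 6 canola arrays fitted alone, the canola change did not pass (adjusted p = 0.187). In descending order the 6 group means were 13.35 ± 0.23 (SD, n = 3) for knockout lard, 12.80 ± 0.50 for knockout fish/fungal, 12.33 ± 0.81 for knockout canola, 9.84 ± 0.19 for control lard, 9.79 ± 0.68 for control canola and 9.72 ± 0.25 for control fish/fungal. Pools of neighbours in this order overlapped except between knockout canola and control lard.

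Gstm2 rose by 1.03 ± 0.13 (95% interval 0.75 to 1.31, adjusted p = 0.00028). On lard it stood at 10.89, 10.26 and 11.17 in knockout livers, against 9.50, 9.35 and 9.24 in control livers. With canola oil the values were 10.35, 9.55 and 9.54 in knockout livers and 9.15, 9.38 and 9.11 in control livers. With fish/fungal oil they were 9.41, 10.05 and 9.80 in knockout livers and 8.43, 8.95 and 8.64 in control livers. The genotypes did not overlap on any diet, but knockout fish/fungal pools reached down to the level of control lard pools. The change passed on lard (1.41 ± 0.23, 2.66-fold, adjusted p = 0.00781). It was 1.08 ± 0.23 on fish/fungal oil (adjusted p = 0.0624) and 0.60 ± 0.23 on canola oil (adjusted p = 0.684). The fish/fungal change passed when knockout lard replicate 2 or 3, knockout canola replicate 1 or knockout fish/fungal replicate 1 was left out, with an adjusted p between 0.0276 and 0.323 over the pools left out. In descending order the means were 10.78 ± 0.47 for knockout lard, 9.81 ± 0.46 for knockout canola, 9.75 ± 0.32 for knockout fish/fungal, 9.36 ± 0.13 for control lard, 9.21 ± 0.14 for control canola and 8.68 ± 0.26 for control fish/fungal (SD, n = 3 each). Pools of neighbours overlapped except those of control canola and control fish/fungal.

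Gstm1 encodes an abundant mu class enzyme of mouse liver. It rose by 0.62 ± 0.07 (95% interval 0.46 to 0.77, adjusted p = 0.000119). Its arrays on lard read 13.77, 13.58 and 13.70 in knockout livers and 12.86, 12.98 and 12.80 in control livers. Those on canola oil read 13.65, 13.36 and 13.20 in knockout livers and 12.94, 12.98 and 12.59 in control livers. Those on fish/fungal oil read 13.26, 13.65 and 13.47 in knockout livers and 12.95, 13.16 and 12.84 in control livers. The lowest knockout array (13.20) lay above the highest control array (13.16) over all diets. Within single diets the change passed on lard (0.80 ± 0.13, 1.75-fold, adjusted p = 0.00517), and it was 0.56 ± 0.13 on canola oil (adjusted p = 0.14) and 0.48 ± 0.13 on fish/fungal oil (adjusted p = 0.176). These values lie near the top of the scale, where the highest value of any probe set was 14.89.

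Gstm4 rose by 0.57 ± 0.12 (95% interval 0.31 to 0.84, adjusted p = 0.0127). Its lard arrays read 10.24, 9.28 and 9.38 in knockout livers and 9.05, 9.02 and 8.83 in control livers. On canola oil the values were 9.79, 9.16 and 9.22 in knockout livers and 8.87, 9.01 and 8.62 in control livers, and on fish/fungal oil 9.25, 9.73 and 9.32 in knockout livers and 8.82, 9.14 and 8.86 in control livers. In each diet 1 knockout pool stood well above the other two. Gstm5, known for its expression in brain and testis, rose by 0.29 ± 0.07 (95% interval 0.15 to 0.43, adjusted p = 0.018), the smallest rise to pass. It averaged 8.82 ± 0.18 in knockout and 8.56 ± 0.11 in control livers on lard, 8.67 ± 0.11 in knockout and 8.33 ± 0.15 in control livers on canola oil, and 8.61 ± 0.18 in knockout and 8.35 ± 0.05 in control livers on fish/fungal oil (SD, n = 3 each). Its lard pools overlapped between the genotypes. Neither gene passed within a single diet, where the changes were 0.49 to 0.67 for Gstm4 (adjusted p from 0.198 to 0.684) and 0.26 to 0.34 for Gstm5 (adjusted p from 0.419 to 0.634).

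Gstm6 and Gstm7 overlapped between the genotypes on every diet. Over the 9 arrays of each genotype Gstm6 had a lowest, median and highest value of 9.21, 9.92 and 10.17 in knockout livers and 8.82, 9.70 and 10.05 in control livers. The corresponding values of Gstm7 were 9.09, 9.48 and 9.78 in knockout livers and 8.96, 9.46 and 9.66 in control livers. The averaged log2 change was 0.28 ± 0.14 for Gstm6 and 0.03 ± 0.09 for Gstm7. The 95% interval was -0.01 to 0.58 for Gstm6, which holds the changes estimated for Gstm4 and Gstm5, and -0.15 to 0.22 for Gstm7, which holds none of those of the 5 genes that rose.

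**Figure D2:**
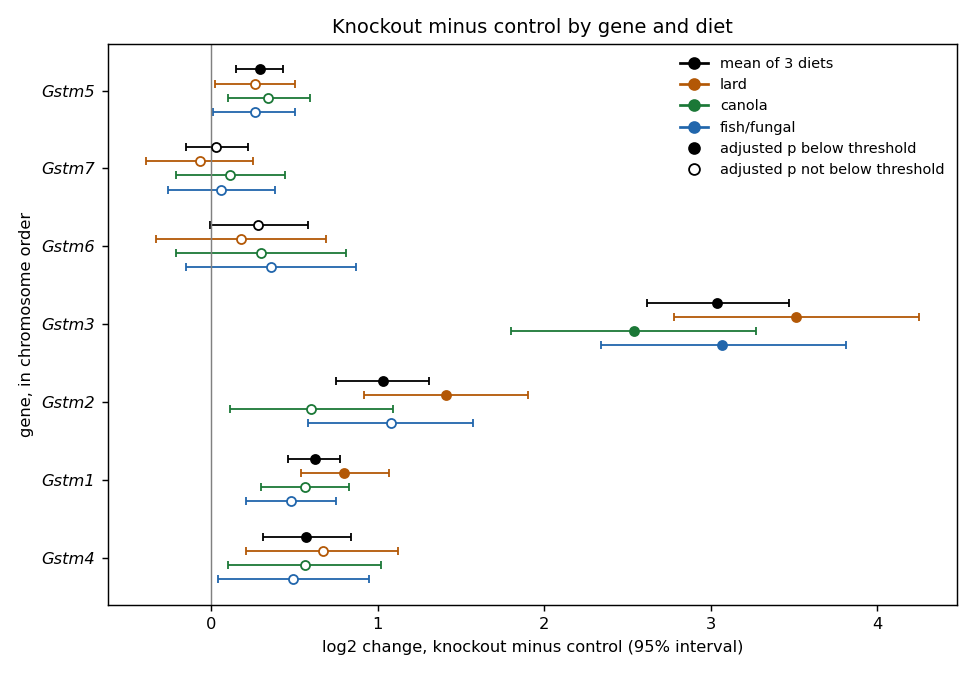
Log2 change, knockout minus control (x, with 95% interval), for each gene in its order on the chromosome (y), as the mean of 3 diets and on each diet, with filled points where the adjusted p passed. Gstm3 lies between 2.54 and 3.51, and Gstm7 between -0.07 and 0.11.

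Whether members differed in the size of their change was tested on the difference of their log2 values within an array, with an exact two-sided permutation test that exchanges the genotype labels within each diet. Of 21 pairs 16 differed after Benjamini-Hochberg adjustment over the pairs. Gstm3 exceeded each of the other 6, by 2.01 (Gstm2) to 3.01 (Gstm7), each with an exact p of 0.00025, the smallest that 8000 arrangements can give (adjusted p = 0.000875). Gstm2 exceeded Gstm1 by 0.41 (exact p = 0.006, adjusted p = 0.00938) and Gstm4 by 0.45 (exact p = 0.0015, adjusted p = 0.0035). Gstm1 and Gstm4 differed by 0.04 (exact p = 0.654, adjusted p = 0.687), and Gstm5 and Gstm6 by 0.01 (exact p = 0.97, adjusted p = 0.97). With a gene's probe sets averaged, Gstm1 minus Gstm2 was -0.28 (adjusted p = 0.0397) and Gstm1 minus Gstm4 was 0.18 (adjusted p = 0.107). Gstm6, though it did not pass on its own, exceeded Gstm7 by 0.25 (exact p = 0.00875, adjusted p = 0.0122). Averaging a gene's probe sets gave 0.24 (adjusted p = 0.0863). Such a difference compares changes read by different probes, which can differ in response.

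Read within single diets by limma, 3 members were higher in the knockout on lard (Gstm1, Gstm2 and Gstm3, against 0.898% of all genes), 1 on canola oil (Gstm3, against 0.0557%) and 1 on fish/fungal oil (Gstm3, against 0.254%). At an unadjusted p under 0.05 there were 5 members on each diet, Gstm1 to Gstm5, against 10.5% of all genes on lard, 6.14% on canola oil and 7.62% on fish/fungal oil. An F test asked whether the knockout effect differs between the diets, and no member passed (limma, 0 also at an unadjusted p under 0.05), nor did any gene tested (0%, with 242 genes, 1.92%, at an unadjusted p under 0.05). The widest differences were in Gstm3 and Gstm2. For Gstm3 the knockout effect on canola oil minus that on lard was -0.98 ± 0.49 (95% interval -2.01 to 0.06; F test adjusted p = 1). For Gstm2 it was -0.82 ± 0.33 (95% interval -1.51 to -0.12; F test adjusted p = 1). Calls on lard and not on canola oil are therefore not shown to differ, and an equal effect on all diets is not shown either.

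No member passed in any of the 6 comparisons of dietary oils (limma). For fish/fungal oil against lard these 0 of 7 members stand beside 0.461% of all genes in knockout and 0.716% in control livers. At an unadjusted p under 0.05 there were 2 members and 8.55% of all genes in knockout livers, and 3 members and 7.97% of all genes in control livers. The log2 difference of Gstm2, fish/fungal oil minus lard, was -1.03 ± 0.23 in knockout livers (95% interval -1.52 to -0.53, adjusted p = 0.0611). It passed without knockout lard replicate 2, knockout canola replicate 1 or knockout fish/fungal replicate 2 (adjusted p between 0.0116 and 0.296 over the pools left out). In control livers it was -0.69 ± 0.23 (95% interval -1.18 to -0.20, adjusted p = 0.327). Pools of the 2 diets did not overlap in either genotype. How many of all genes separate in this way between diets was not counted, so this only describes the values. For the pair Gstm6 and Gstm7, which the knockout did not move past the threshold, the differences were also negative in both genotypes. Those of Gstm6 were -0.62 ± 0.24 in knockout livers (adjusted p = 0.45) and -0.79 ± 0.24 in control livers (adjusted p = 0.228). Those of Gstm7 were -0.31 ± 0.15 in knockout livers (adjusted p = 0.602) and -0.44 ± 0.15 in control livers (adjusted p = 0.343). Gstm5, which rose in the knockout, was negative in both genotypes as well. It was at -0.22 ± 0.12 in knockout livers (adjusted p = 0.668) and -0.21 ± 0.12 in control livers (adjusted p = 0.715). Gstm1, Gstm3 and Gstm4 lay between -0.56 and -0.20 in knockout livers and between -0.12 and 0.10 in control livers, each with an interval that holds 0.

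**Figure D3:**
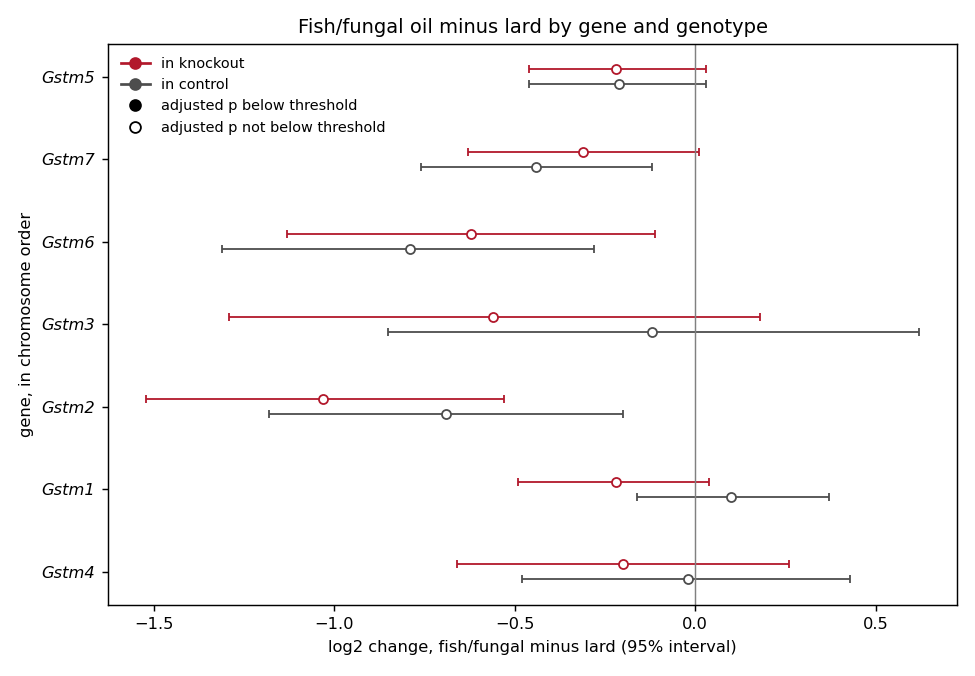
Log2 change, fish/fungal oil minus lard (x, with 95% interval), for each gene in its order on the chromosome (y), in knockout and in control livers. No point is filled, since no adjusted p passed. Gstm2 and Gstm6 lie below 0 with their whole intervals in both genotypes.

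For canola oil against lard no member passed in either genotype, nor did any gene tested (0% by limma in both). At an unadjusted p under 0.05 there were 3 members and 4.83% of all genes in knockout livers, and 0 members and 4.60% of all genes in control livers. In knockout livers Gstm3 was at -1.03 ± 0.35 on canola oil against lard (adjusted p = 0.821), Gstm2 at -0.96 ± 0.23 (adjusted p = 0.521) and Gstm1 at -0.28 ± 0.13 (adjusted p = 1). In control livers these 3 differences were -0.05, -0.15 and -0.04. For fish/fungal oil against canola oil 0 members passed, beside 0.159% of all genes in knockout and 0.262% in control livers. An unadjusted p under 0.05 was found for 0 members and 5.92% of all genes in knockout livers, and for 1 member and 6.57% of all genes in control livers. The 1 member was Gstm2, at -0.54 ± 0.23 in control livers (adjusted p = 0.701).

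In the averaged knockout effect, probe sets of the same gene had the same sign. Gstm1 has 4, and their averaged knockout changes were 0.62 (1416416_x_at, the one used), 0.77 (1425626_at), 0.82 (1425627_x_at) and 0.81 (1448330_at), each past the threshold with adjustment over 23778 probe sets (adjusted p from 3.53e-05 to 0.00273). The one used is the brightest and gave the smallest change. Suffixes tell how probes match. In Affymetrix naming, _x_at marks a set in which some probes match other transcripts, _s_at a set whose probes all match several, and _a_at one for variants of a gene. For Gstm3, 1427474_s_at (used) gave 3.04 ± 0.20 and 1427473_at, without a suffix, 3.25 ± 0.22 (both adjusted p = 1.8e-07). On 1427473_at the values on lard were 11.40, 10.79 and 11.09 in knockout livers and 7.30, 7.45 and 7.06 in control livers, again without overlap. The 2 sets of Gstm7 gave 0.03 ± 0.09 (1419072_at, used) and 0.04 ± 0.06 (1425946_at). Fish/fungal oil against lard separated these 2 sets in knockout livers, at -0.31 on 1419072_at and 0.17 on 1425946_at, so the diet difference of Gstm7 rests on the brighter one. Gstm2 (1416411_at), Gstm4 (1424835_at), Gstm5 (1416842_at) and Gstm6 (1422072_a_at) have 1 set each. How much RNA of one member adds to the signal of another was not tested.

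**Figure D4:**
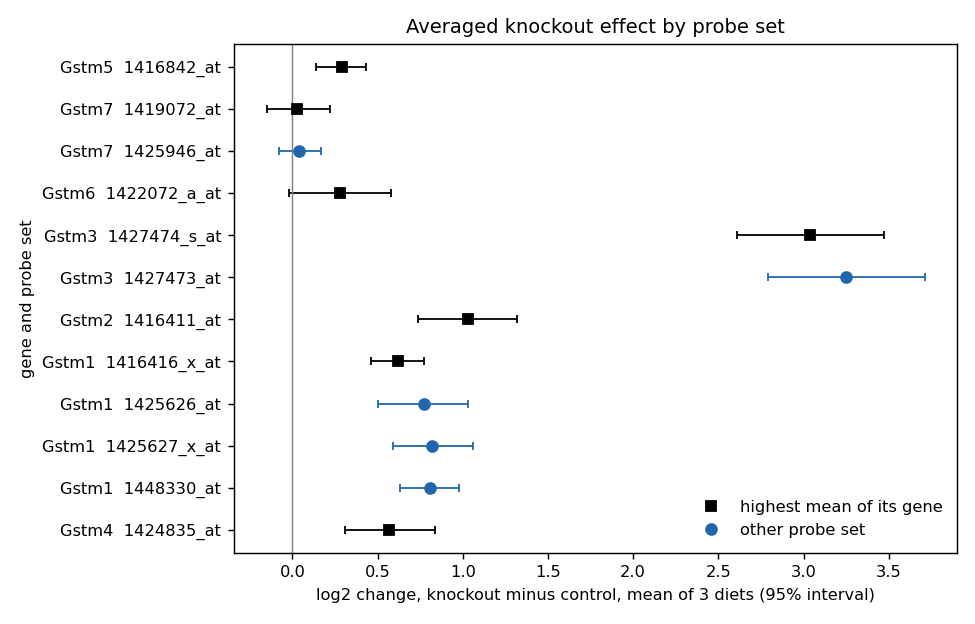
Averaged knockout change (x, log2, with 95% interval) of each of the 12 probe sets (y, with gene), squares for the set used for its gene. Both sets of Gstm3 lie at 3.04 and 3.25, and the 4 sets of Gstm1 between 0.62 and 0.82.

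Along the chromosome the 4 genes with log2 changes above 0.5 are neighbours, in the order Gstm3 (3.04), Gstm2 (1.03), Gstm1 (0.62) and Gstm4 (0.57). On one side of them follow Gstm6 (0.28), Gstm7 (0.03) and Gstm5 (0.29). Beyond Gstm4 the next coding gene, Ampd2, which encodes an AMP deaminase, was at -0.17 ± 0.09 (adjusted p = 0.378). Beyond Gstm5 the nearest coding gene with a value, Csf1, the macrophage growth factor gene, was at -0.03 ± 0.05 (adjusted p = 0.833). Both were taken for their position after the members' values were seen.

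Pools of a group also varied together. After each group's mean was taken off, Gstm1 and Gstm3 correlated at r = 0.92 over the 18 arrays, and the pairs among Gstm1, Gstm2, Gstm3 and Gstm4 at 0.65 to 0.92. Gstm6 and Gstm7 correlated at 0.90 with each other, and at -0.15 to 0.37 with Gstm1, Gstm2, Gstm3 and Gstm4. Gstm5 correlated at 0.57 with Gstm4 and at -0.28 with both Gstm6 and Gstm7. Thus the pools varied together in Gstm1 to Gstm4, all of which rose in the knockout, and separately in Gstm6 and Gstm7, which did not pass. Gstm5 rose as well, with lower correlations to both sets. Points in these correlations share an array and its normalization, and signal shared between probe sets was not tested.

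**Figure D5:**
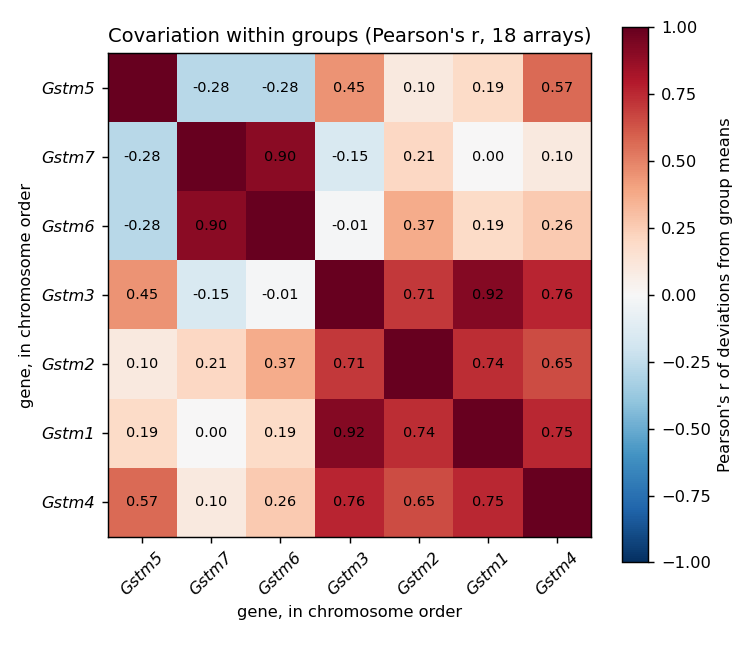
Pearson's r between members (x and y, in chromosome order) over 18 arrays, computed on deviations from the 6 group means. A block of Gstm3, Gstm2, Gstm1 and Gstm4 lies at 0.65 to 0.92, and Gstm6 and Gstm7 correlate at 0.90.

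Outside the family, genes with the most similar pattern over the 18 arrays were sought for each member, by Pearson's r. Since the genotypes form 2 clusters for the members that rose, r within groups is given beside it for the genes nearest to those. Gstm3 was closest to Ifi27l2b, a gene of the Ifi27 family (r = 0.95, within groups 0.87), to Cyp2b10, the classical CAR-induced P450 (0.95, within groups 0.46), and to Cyp2c55, a P450 under CAR and PXR (0.95, within groups 0.15). The likeness to these P450s was thus weaker among pools of a group than that to Ifi27l2b. Gstm1 was closest to Ifi27l2b as well (0.95, within groups 0.75), followed by the lipid phosphatase gene Plpp5 (0.94, within groups 0.73) and the lysosomal hexosaminidase gene Hexa (0.92, within groups 0.65). Gstm4 was closest to Srxn1, the sulfiredoxin gene and an NRF2 target (0.93, within groups 0.95), to the oxidoreductase gene Pyroxd2 (0.89, within groups 0.78) and to Ifi27l2b (0.88, within groups 0.79). Srxn1 itself was at 0.52 ± 0.15 (adjusted p = 0.0579).

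The genes nearest to Gstm2 were the annexin genes Anxa5 (0.93) and Anxa2 (0.92) and the macrophage glycoprotein gene Gpnmb (0.92), with 0.73 to 0.77 within groups. In the knockout Anxa5 rose by 0.66 (adjusted p = 0.000623), Anxa2 by 0.69 (adjusted p = 0.00208) and Gpnmb by 0.51 (adjusted p = 0.00856). Gstm5 was closest to Tmem71 (0.88, within groups 0.65), the septin gene Septin7 (0.87, within groups 0.71) and the tubulin gene Tuba1a (0.84, within groups 0.62). Gstm6 was closest to the actin-binding protein gene Dbnl (0.90), the MHC class I gene H2-K1 (0.89) and the adrenergic receptor gene Adra1b (0.88). For Gstm7 they were Cyb5b, an outer mitochondrial cytochrome b5 gene (0.88), Abhd17c (0.87) and the mitochondrial citrate carrier gene Slc25a1 (0.86). None of the genes nearest to Gstm6 and Gstm7 passed in the averaged knockout effect (adjusted p from 0.211 to 0.981).

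Other genes of glutathione conjugation were read from lists in the averaged knockout effect, to be set against the 3.82% higher and 0.755% lower among all genes. Of 13 tested transferases of other classes 3 rose and 0 fell (median log2 change 0.14), namely Gsta2 (0.99 ± 0.18, adjusted p = 0.00407) and Gsta4 (0.62 ± 0.12, adjusted p = 0.00599) of the alpha class and Gstt3 of the theta class (0.89 ± 0.20, adjusted p = 0.0135). Of 24 genes of glutathione synthesis, recycling and breakdown 2 rose and 1 fell (median 0.04). Those that rose were Gpx4, the phospholipid peroxidase gene (0.26 ± 0.06, adjusted p = 0.0179), and the glutaredoxin gene Glrx (0.35 ± 0.09, adjusted p = 0.0402). Cbs, which directs homocysteine towards cysteine, fell by 0.38 ± 0.07 (adjusted p = 0.00559). Of 9 genes of conjugate export and mercapturate formation 1 rose and 2 fell (median -0.08). The basolateral exporter gene Abcc3 rose by 1.18 ± 0.16 (adjusted p = 0.000436), while Nat8, whose product acetylates cysteine conjugates, fell by 0.84 ± 0.14 (adjusted p = 0.00233) and the anion transporter gene Slc22a7 by 0.85 ± 0.16 (adjusted p = 0.00543).

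Among targets of the regulators known for Gstm genes, 15 of 20 tested CAR and PXR targets rose and 0 fell (median 0.43). Over all genes tested 3.82% were higher and 0.755% lower. The targets that rose included Cyp2c55 (4.14), Cyp2b10 (4.91), the carboxylesterase gene Ces2a (1.06) and Cyp3a25 (0.46). Of 19 NRF2 targets 6 rose and 0 fell (median 0.19), among them the epoxide hydrolase gene Ephx1 (0.43 ± 0.07, adjusted p = 0.00163), the haem oxygenase gene Hmox1 (0.63 ± 0.12, adjusted p = 0.00467) and the carbonyl reductase genes Cbr1 (0.49) and Cbr3 (1.23). Cbr3 was dim in control livers, with a mean of 5.33 against 6.56 in knockout livers. NRF2 targets that did not pass lay between -0.47 (Me1) and 0.52 (Srxn1), with Nqo1 at 0.32, Gclc at 0.16 and Gclm at -0.01. Of 16 regulators 0 rose and 1 fell (median 0.02), the AHR partner gene Arnt (-0.23 ± 0.06, adjusted p = 0.0334). The part of these regulators in the changes of the mu class genes was not tested.

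Lists of cell type markers are given next, since in bulk RNA more cells of a type and more RNA per cell cannot be told apart. In the averaged knockout effect 2262 of the 12578 genes tested had an unadjusted p under 0.05. Of 9 hepatocyte markers 0 passed (limma, 0 also unadjusted; median log2 change -0.05), and their summed linear signal ran from 135000 to 147000 in knockout and from 138000 to 153000 in control livers. Of 12 pericentral markers 4 rose and 0 fell (5 unadjusted, median 0.16), among them Cyp1a2 (0.63) and the ammonia transporter gene Rhbg (0.70), with sums of 66700 to 78300 in knockout and 59300 to 68300 in control livers. Another of the 4, Aldh1a1 (0.28), is also on the list of CAR and PXR targets. Pericentral markers that did not pass lay between -0.02 (Rgn) and 0.21 (Slc1a2), with Glul at 0.14. Of 14 macrophage markers 6 rose and 0 fell (11 unadjusted, median 0.33), among them Itgax (0.26), Cd68 (0.52) and Gpnmb, 1 of the genes nearest to Gstm2. Their sums were 9770 to 18400 in knockout and 7890 to 13300 in control livers, and none of the 14 was too dim to test. Of 12 stellate cell markers 1 rose (Timp1, 0.36 ± 0.06, adjusted p = 0.00311) and 0 fell. Timp1 was dim, with a mean of 5.26 in knockout and 4.90 in control livers, beside array medians of 5.229 to 5.286. A gene this dim was tested only if at least 3 arrays exceeded the median, which favours a rise. Unadjusted there were 7 of the 12, with a median of 0.28 and sums of 6630 to 9030 in knockout and 5800 to 7290 in control livers. The part of these cells in the changes of the mu class genes was not tested.

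Markers of 6 other cell types had 0 past the threshold by limma. At an unadjusted p under 0.05 there were 3 of 10 periportal and 2 of 10 endothelial markers, and 0 of 6 lymphocyte, 0 of 4 neutrophil and 0 of 3 bile duct markers. The 1 erythroid marker bright enough to test, Alas2, was also below it, at -0.17 ± 0.07 (adjusted p = 0.172). Of 3 pancreatic acinar markers 1 fell, Cela1 (-0.57 ± 0.13, adjusted p = 0.0179), while Prss2 was at -0.08 and Ctrb1 at -0.04. Of 2 adipocyte markers 1 rose, Fabp4 (0.45 ± 0.11, adjusted p = 0.0246), while Retn was at -0.02.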

How the data were processed

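Liver RNA of 18 pools was hybridised to Affymetrix Mouse Genome 430 2.0 arrays. The authors' deposited values are on the log2 scale and come from RMA (named in the submitters' processing notes; its version is not given in the sources used here). Array medians ran from 5.229 to 5.286, and values correlated at 0.99283 to 0.99691 within groups. Probe sets were named through the platform annotation (34945 of 45101 with 1 symbol, 932 with several, 9160 not listed, 64 controls). Of those with 1 symbol, 34741 were matched to RefSeq (GRCm38.p6) and given its symbol, whether or not it differed. A gene was read from its probe set with the highest mean and tested if that exceeded the array median in at least 3 arrays (12578 of 18193 genes). With limma 3.58.1 in R 4.3.3, 6 group means were fitted to all 18 arrays, with an intensity trend, two-sided tests and Benjamini-Hochberg adjustment over all genes tested. Differences between members were tested by exact permutation.

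Members and gene lists were chosen with earlier results of these data known. Named besides the members are the 3 other genes with the highest r to each member. By smallest p, up to 4 genes past the threshold are named from each pathway list, and up to 2 from each cell type list. Also named are neighbours on the chromosome, Gpnmb among macrophage markers, further pericentral markers, and the other acinar and adipocyte markers. Some NRF2 targets that did not pass are named too. Alternatives covered normalization, the dimness filter, the choice of probe sets, the intensity trend, array weights, the arrays fitted, a replicate block and each pool left out. The number of arrays limits the precision.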

Additional observations from a re-analysis of the deposited data

How the results depend on the processing

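No member changed direction past the threshold in any alternative run, and of 2208 member values 10 changed side of the threshold. In the averaged knockout effect 5 members passed in every alternative, and on lard 3. The highest adjusted p of a call was 0.0454 in the averaged effect (Gstm5, without knockout canola replicate 1) and 0.0496 on lard (Gstm2, without control lard replicate 3). On canola oil, where Gstm3 passed (adjusted p up to 0.048 with a pool left out), 2 members passed with array weights (Gstm1 added, adjusted p = 0.00647) and 0 with only the 6 arrays compared (Gstm3 2.54, adjusted p = 0.187; the construction leaves fewer samples). On fish/fungal oil, where Gstm3 passed, 2 passed with arrays centred on the median, and 1 to 2 with a pool left out. The second was Gstm2 (adjusted p from 0.0276 to 0.323), without knockout lard replicate 2 or 3, knockout canola replicate 1 or knockout fish/fungal replicate 1. For fish/fungal oil against lard in knockout livers 0 to 1 passed with a pool left out. That 1 was Gstm2 (adjusted p from 0.0116 to 0.296), without knockout lard replicate 2, knockout canola replicate 1 or knockout fish/fungal replicate 2. The cause was not tested. Of pairs of members 17 differed with the mean of probe sets, against 16.

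Counts over all genes moved more. In the averaged effect 575 genes passed, 371 without knockout canola replicate 2 and 846 with array weights. On lard 124 passed, with a range of 30 to 182 over the alternatives. On canola oil 8 passed, against 90 with array weights and 1 with only the arrays compared. On fish/fungal oil 37 passed (13 to 43). For fish/fungal oil against lard 58 passed in knockout livers (12 to 116) and 90 in control livers (41 to 123), and against canola oil 20 in knockout livers (5 to 30) and 33 in control livers (19 to 50).

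Replicate numbers are shared between genotypes. Deviations of same-numbered pools from their group means correlated at -0.27 to 0.46 over the genes tested. The highest values were those of canola pools 2 (0.22) and 3 (0.46). Pools of different number were not compared, so a pairing is neither shown nor excluded, and pools were treated as unpaired. The replicate block gives each number 1 effect common to all groups, so it cannot take up a pairing within 1 diet only. With the replicate block 5 members passed in the averaged effect, 3 on lard, 1 on canola oil, 1 on fish/fungal oil and 0 in the other comparisons, and 538 genes passed in the averaged effect. Gstm6 has no value without the suffixed probe sets, and fitting only the groups compared gives nothing separate for the averaged effect and the F test. With 3 pools a group and no single-mouse values, differences smaller than the intervals given could not be resolved.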
